A study of Mus musculus with 36 samples.

Results

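Cells of the mouse microglial line BV-2 that had received only the ethanol vehicle were compared at 24 h and at 4 h, without lipopolysaccharide (LPS), across all genes of the deposited table that holds these libraries. This comparison took 6 of the 36 RNA-seq libraries of the series, 3 at 4 h and 3 at 24 h, with replicate numbers 4, 5 and 6 at each time. The series tested dimethyl fumarate, monomethyl fumarate and cannabidiol in LPS-activated BV-2 cells, and ethanol was the solvent of cannabidiol. The vehicle made up 0.2% of the medium in every culture, and the wild-type cells were grown in medium with 10% fetal bovine serum. Serum was lowered to 0.1% just before treatment in the LPS experiments. Whether the cultures without LPS had the same change of serum is not given in the sources used here. The matching cultures in dimethyl sulfoxide (DMSO), also at 0.2%, 4 h and 24 h and without LPS, share no library with the ethanol cultures and served as the comparison.

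BV-2 is 1 immortalised line, so these libraries describe a dividing cell line rather than microglia in tissue. The labels say that each experiment was done 3 times but not whether the replicates were separate cultures, so p-values measure only the spread between these libraries, which may be technical. The comparison holds no library from the start of treatment and none without vehicle. A difference between 24 h and 4 h therefore joins the time since the medium change, the growth of the culture and any action of ethanol, and these cannot be told apart. In a bulk sample, a change in the share of cells that express a gene and a change in RNA per cell likewise cannot be told apart.

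Growing cells use up glucose, oxygen and serum factors between changes of medium. Low oxygen stabilises the transcription factor HIF-1, which binds a short element with the core ACGTG and raises glucose uptake, glycolysis and mitophagy genes. Cells that leave the cell cycle lower the E2F-driven genes of DNA replication and raise inhibitors of cyclin-dependent kinases, many of them targets of FoxO factors, while the making of ribosomes follows growth signals. Macrophage-lineage cells such as microglia also answer their surroundings with chemokines, interferon-stimulated genes and nitric oxide synthase.

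The libraries held 14539102 to 26676607 reads assigned to genes, with 16244900 to 16985169 at 4 h and both the deepest and the shallowest library at 24 h. Along the first principal component of the 12 vehicle libraries, which held 68.8% of the variance, the ethanol cultures lay at -30.6, -20.1 and -28.0 at 4 h and at 20.6, 24.1 and 29.2 at 24 h. Replicate 5 at 4 h stood apart: it was the lowest ethanol library on the second component (-12.4), and replicate 5 at 4 h was the lowest DMSO library (-15.7). Where it moved a list's count by over 1.5 times or a named gene's call, the value without it is given. Microglial identity was checked on 15 listed markers, whose summed normalized counts spanned 45740 to 53410 at 4 h and 42720 to 47590 at 24 h. The homeostatic markers P2ry12 (43.3 to 85.2) and Tmem119 (76.9 to 105) were low in every library, and Sall1 had no entry in the table. Of 16 markers of astrocytes, neurons, oligodendrocytes, fibroblasts and lymphocytes, 9 had an entry, and their sum, mostly Mbp, spanned 1548 to 1714 at 4 h and 1481 to 1816 at 24 h.

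Of 11775 genes tested with limma on log2(normalized count + 1), 3430 were higher at 24 h (29.1%) and 3471 lower (29.5%), 58.6% in all, by a Benjamini-Hochberg adjusted p with a threshold of 0.05. The median log2 fold change, called the log2 change for single genes, was -0.0015. The large changes were mostly rises. Beyond a log2 fold change of 1, 871 genes were higher (7.4%) and 265 lower (2.25%), beyond 2 the counts were 159 (1.35%) and 7 (0.0594%), and beyond 3 they were 22 (0.187%) and 1 (0.00849%). When the genes were split into 3 equal groups of 3925 by mean abundance, rises beyond 1 outnumbered falls in each: 552 to 161 in the least abundant, 184 to 63 in the middle and 135 to 41 in the most abundant. All 6 libraries of a gene kept apart by time, 24 h wholly above or wholly below 4 h, in 65.8% of the tested genes, 32.3% above and 33.5% below. Because more than 1 gene in every 2 tested passed the threshold, the counts in the gene lists are to be read against these percentages, and no list was tested against other genes. In the lists of the clock (9 of 15 called), cytokines (8 of 14), the unfolded protein response (9 of 14), Nrf2 (9 of 13), microglial markers (8 of 15) and mitochondrially encoded genes (7 of 11) the share called was near the 58.6% of all tested genes, and their members' values are descriptions only. The same holds for targets of the stress factor ATF4, with 9 higher and 1 lower of 15. It holds for targets of the sterol sensor LXR (3 and 2 of 8) and complement (2 and 2 of 6). Shares were lower for sterol synthesis (7 and 1 of 18) and the ethanol and aldehyde enzymes (2 and 2 of 9). They were lower too for antigen presentation (1 and 2 of 11) and activated phagocyte genes (2 and 2 of 12).

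**Figure D1:**
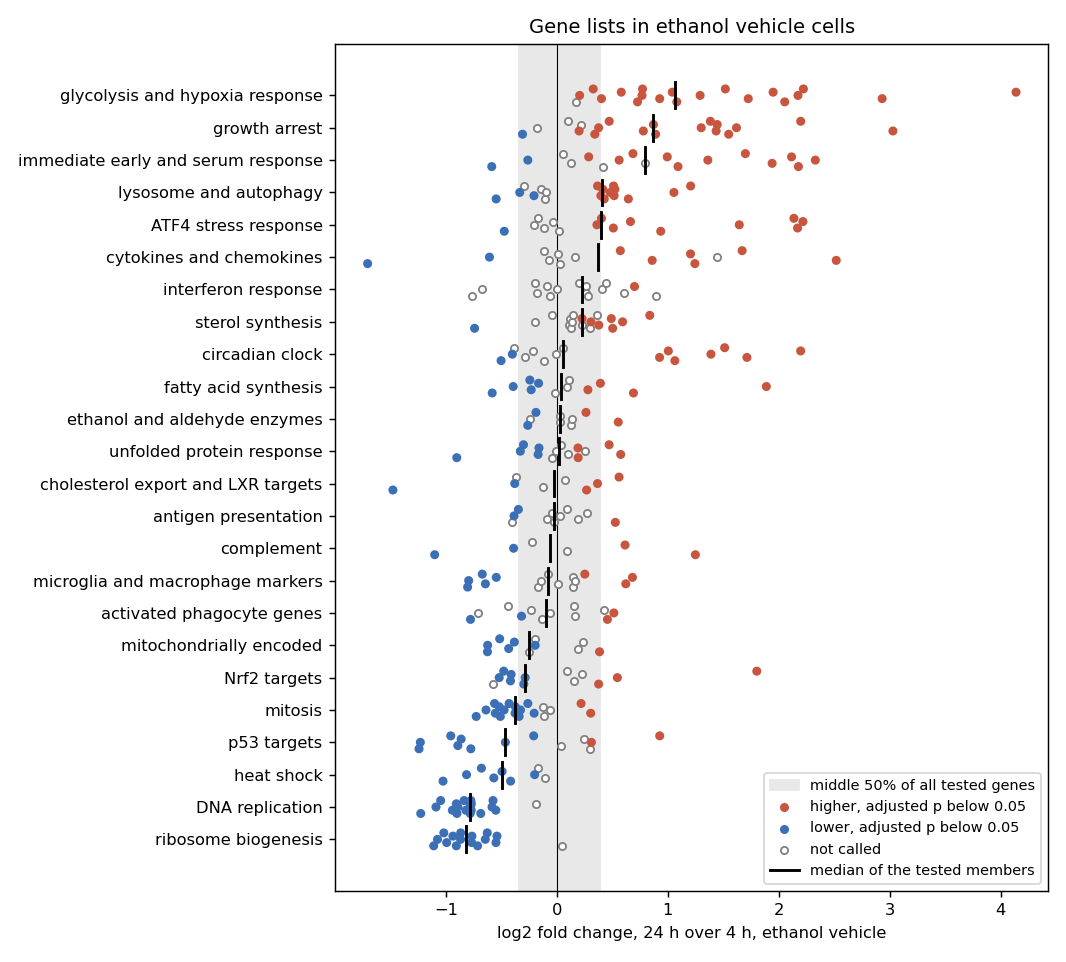
Log2 fold change of 24 h over 4 h in ethanol vehicle cells (horizontal axis) for the tested members of each gene list (rows), ordered by list median. Points stand for genes, filled where the adjusted p was below 0.05 (red higher, blue lower) and open otherwise, black bars give list medians and the grey band holds the middle 50% of all tested genes. The glycolysis and hypoxia list lies furthest to the right (median 1.06), and the ribosome biogenesis (-0.82) and DNA replication (-0.78) lists lie furthest to the left.

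Genes of glucose uptake, glycolysis and the hypoxia response rose together. Of 20 tested members, 19 were higher and 0 lower at 24 h, with a median log2 fold change of 1.06, against -0.0015 and 29.1% higher over all tested genes. Adm, the vasodilator peptide adrenomedullin (ENSMUSG00000030790, chr7:110226868-110229027 on GRCm39, the build of all gene positions given), had normalized counts of 62.4, 212 and 40.4 at 4 h and 1174, 1393 and 1852 at 24 h, a log2 change of 4.14 (SE 0.46, adjusted p = 4.96e-05). Ndrg1, a growth-arrest gene of the hypoxia response (ENSMUSG00000005125, chr15:66801167-66841489), read 5493, 12091 and 5391 at 4 h and 45679, 57130.5 and 60799 at 24 h, a log2 change of 2.93 (SE 0.26, adjusted p = 1.58e-05). In both genes the 24 h libraries all lay above the 4 h libraries, which for Adm the choice of the largest rises below required. In both, replicate 5 was the highest at 4 h. Without it the log2 fold changes were 4.82 and 3.31. Slc2a1, the glucose transporter GLUT1, went from 5635 ± 1644 at 4 h to 21207 ± 1732 at 24 h (SD, n = 3), a log2 change of 1.95 (SE 0.16, adjusted p = 1.32e-05). Bnip3, a mitophagy receptor, rose by 2.22 (SE 0.18, adjusted p = 1.21e-05) and Ankrd37, a small ankyrin repeat protein, by 2.17 (SE 0.28, adjusted p = 1.03e-04) on the same scale. Within glycolysis itself the rises were smaller for many steps. The phosphofructokinase gene Pfkp rose by 1.72, hexokinase Hk2 by 0.58 and Pdk1, the kinase that holds pyruvate back from the mitochondria, by 1.04, with adjusted p of 4.60e-06, 0.00274 and 1.78e-05. Ldha, which turns pyruvate into lactate, was the 1 member that did not pass, at 0.18 (SE 0.09, adjusted p = 0.106), with counts of 61912, 72261 and 64222 at 4 h and 72327, 76891 and 74498 at 24 h. Replicate 5 was the highest of the 4 h libraries in 20 of 20 members. All 20 passed when it was left out. The members together took 2.05 to 2.54% at 4 h and 3.37 to 3.79% at 24 h of the reads of the ethanol libraries.

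The promoter windows of 19 members were found in a RefSeq table, which gives 250 bases before to 50 after the start of each gene on build GRCm38.p6, whereas the deposited counts used GRCm39. The letters ACGTG were looked for on both strands. They occurred in 8 of the 19 windows (Slc2a1, Hk2, Pgk1, Pgam1, Ldha, Bnip3, Egln3 and Ankrd37), in 19.7% of all 27025 windows, in 26.0% of those of tested genes, in 27.3% of those of genes that rose beyond 1 and in 22.2% of those that fell beyond 1. The windows of 3 members that rose are shown to let a reader see where these letters lie, with matches in capitals. In Bnip3 the letters read CACGTG and match on both strands, and CACGTG is also the E-box. Adm, the member with the largest rise, held no match in its window, and Ldha, which did not pass, held one. A match is a description of the letters only.
Ankrd37, chr8:45999801-46000100 (- strand): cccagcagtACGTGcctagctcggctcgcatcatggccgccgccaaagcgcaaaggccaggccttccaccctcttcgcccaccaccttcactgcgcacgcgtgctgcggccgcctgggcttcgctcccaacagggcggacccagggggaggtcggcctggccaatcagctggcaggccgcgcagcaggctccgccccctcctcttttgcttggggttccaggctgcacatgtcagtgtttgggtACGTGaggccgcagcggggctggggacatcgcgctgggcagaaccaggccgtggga
Bnip3, chr7:138909457-138909756 (- strand): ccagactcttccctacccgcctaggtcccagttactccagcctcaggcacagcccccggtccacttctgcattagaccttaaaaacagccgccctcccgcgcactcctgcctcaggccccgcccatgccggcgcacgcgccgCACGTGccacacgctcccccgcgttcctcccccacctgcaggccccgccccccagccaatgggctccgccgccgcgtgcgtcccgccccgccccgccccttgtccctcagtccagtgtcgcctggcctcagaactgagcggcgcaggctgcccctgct
Slc2a1, chr4:119108495-119108794 (+ strand): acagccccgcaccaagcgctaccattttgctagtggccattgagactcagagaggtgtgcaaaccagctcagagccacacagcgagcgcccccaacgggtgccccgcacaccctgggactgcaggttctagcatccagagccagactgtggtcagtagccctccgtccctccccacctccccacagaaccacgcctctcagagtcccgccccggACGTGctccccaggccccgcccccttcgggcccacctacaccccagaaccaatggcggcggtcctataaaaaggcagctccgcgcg

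The 12 largest rises were taken among called protein coding genes whose mean in the higher group reached 100 and whose 24 h and 4 h libraries did not overlap, so neither the calls nor the separation are findings about them. They were Lrrc32, Nos2, Grin1, Pgf, Klhl3, Selenbp1, Adm, Atp7b, Mpp2, Selenbp2, Gipr and Garin1a, with log2 fold changes from 5.03 down to 3.33. Lrrc32, which anchors latent TGF-beta at the cell surface (ENSMUSG00000090958, chr7:98138490-98151388), read 10.4, 56.0 and 9.83 at 4 h and 570.0, 604 and 705 at 24 h, a log2 change of 5.03 (SE 0.51, adjusted p = 3.01e-05). Nos2, the inducible nitric oxide synthase (ENSMUSG00000020826, chr11:78811613-78851080), read 13.9, 150.0 and 13.1 at 4 h and 754, 971 and 960.5 at 24 h, a log2 change of 4.82 (SE 0.71, adjusted p = 2.53e-04). Both were low in replicates 4 and 6 at 4 h and higher in replicate 5, and all 3 libraries at 24 h lay far above them. Without replicate 5 their log2 fold changes were 5.81 and 5.94. Grin1, the obligatory subunit of NMDA-type glutamate receptors, read 12.7, 39.2 and 10.9 at 4 h and 331, 418 and 488 at 24 h, a change of 4.45 (SE 0.39, adjusted p = 1.53e-05). Pgf, the placental growth factor of the VEGF family, rose by 4.35 and Atp7b, a copper-exporting ATPase, by 4.14 (adjusted p = 6.50e-06 and 2.68e-05). Selenbp1, a methanethiol oxidase (ENSMUSG00000068874, chr3:94840367-94852069), read 126, 426 and 179 at 4 h and 2906, 4569 and 5081 at 24 h, a change of 4.25 (SE 0.36, adjusted p = 1.43e-05). Its paralogue Selenbp2 rose by 3.83, and because the 2 genes are near copies, how reads were split between them is uncertain. Gipr, the receptor of the incretin hormone GIP, read 86.6, 142 and 73.2 at 4 h and 1002, 1071 and 1457 at 24 h. In 11 of these 12 genes replicate 5 was the highest 4 h library, and 12 of 12 passed without it and under each of the other settings tried.

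The falls, taken by the same rule, were shallower. The 12 largest were Id3, Mboat1, She, Clec4a2, F12, Gpx1, Ccl7, Slc6a12, Gnb1l, Cd300e, Grwd1 and Tnnt2, from -2.44 to -1.58. Id3, an inhibitor of helix-loop-helix factors that answers BMP and serum signals (ENSMUSG00000007872, chr4:135870808-135873066), read 139, 209 and 184 at 4 h and 33.5, 44.1 and 20.5 at 24 h, a log2 change of -2.44 (SE 0.27, adjusted p = 4.75e-05). Mboat1, an acyltransferase of membrane lipids (ENSMUSG00000038732, chr13:30320472-30430700), read 611, 549 and 666 at 4 h and 139.7, 183 and 117 at 24 h, a change of -2.07 (SE 0.16, adjusted p = 9.63e-06). The highest 24 h library of each lay below its lowest 4 h library, as the rule required. Gpx1, the glutathione peroxidase that removes hydrogen peroxide, read 241, 303 and 324 at 4 h and 109, 81.7 and 65.5 at 24 h, a change of -1.77 (SE 0.19, adjusted p = 4.37e-05). Clec4a2, a lectin receptor of myeloid cells from a family of similar genes, fell by 1.97 (adjusted p = 2.89e-04). Slc6a12, the betaine transporter, fell by 1.69 and Grwd1, a chaperone of histones and ribosomal protein, by 1.58 on the log2 scale (adjusted p = 4.42e-05 and 1.21e-05). All but Ccl7 passed under each of the other settings tried.

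**Figure D2:**
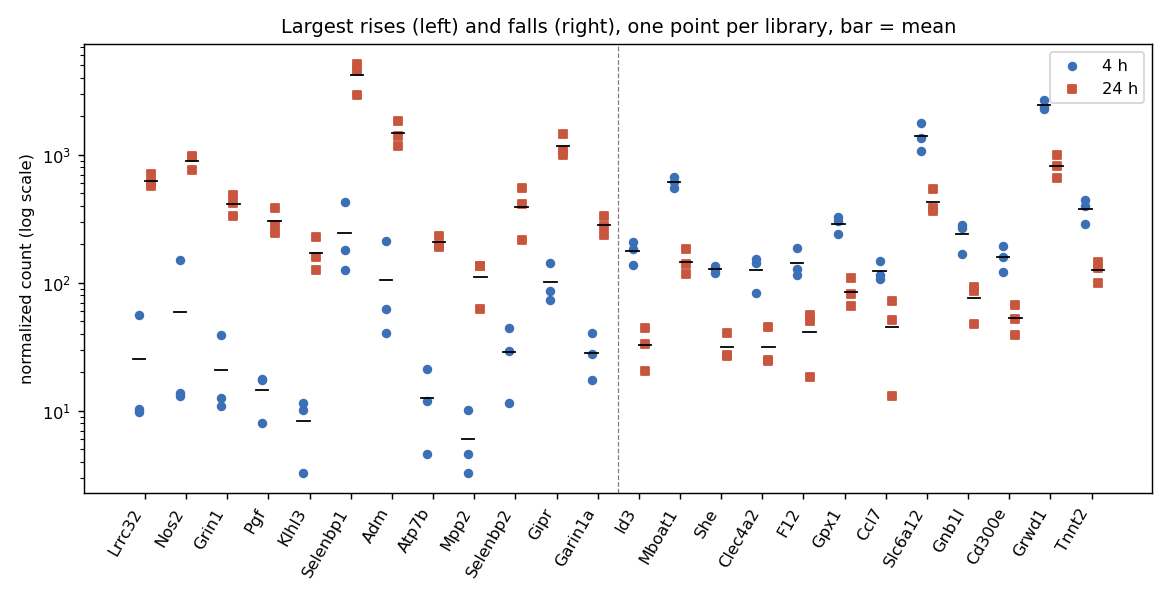
Normalized counts (log scale) of the 12 genes with the largest rises, left of the dashed line, and the 12 with the largest falls, right of it, in ethanol vehicle cells. Circles are 4 h libraries, squares 24 h libraries and bars the means of 3. The separation of 24 h from 4 h libraries was required for a gene to be shown, and for Lrrc32, Nos2 and Adm 1 of the 3 libraries at 4 h lies far above the other 2.

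Genes of DNA replication fell as a block. Of 20 tested members, 0 were higher and 19 lower at 24 h, with a median log2 fold change of -0.78. Tyms, which makes thymidylate for DNA synthesis, read 835, 823 and 871 at 4 h and 428, 368 and 295 at 24 h, a log2 change of -1.23 (SE 0.12, adjusted p = 2.94e-05). Mcm6, a subunit of the replicative helicase, read 6623, 5681 and 6039 at 4 h and 3346, 3053 and 2524 at 24 h, a change of -1.05 (SE 0.10, adjusted p = 2.32e-05). No 24 h library of Tyms or Mcm6 reached the lowest 4 h library. Its helicase partners Mcm5 and Mcm2 fell by 0.94 and 0.77, and the sliding clamp Pcna by 0.78 (adjusted p = 7.59e-05, 1.29e-04 and 4.54e-05). Cdt1, the licensing factor that loads the helicase, was at -0.19 (SE 0.08, adjusted p = 0.0736) and did not pass. Without replicate 5 at 4 h Cdt1 was at -0.27 (adjusted p = 0.00674) and passed. The list took 0.317 to 0.351% at 4 h and 0.161 to 0.221% at 24 h of the reads. In DMSO the same list gave 0 higher and 19 lower of 20, median -0.68.

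An E2F element, spelled TTTGGCGC or TTTCGCGC and looked for on both strands, was chosen after the values were seen. It was present in 5 of the 15 replication genes with a promoter window (Mcm3, Mcm5, Mcm6, Mcm7 and Cdt1), in 0.833% of all windows and in 1.63% of those of tested genes. The windows of Mcm6 and Mcm5 are printed to show that the matches of opposite strands overlap in 1 run of capitals in each gene. Mcm2 fell too and had no match in its window.
Mcm6, chr1:128359656-128359955 (- strand): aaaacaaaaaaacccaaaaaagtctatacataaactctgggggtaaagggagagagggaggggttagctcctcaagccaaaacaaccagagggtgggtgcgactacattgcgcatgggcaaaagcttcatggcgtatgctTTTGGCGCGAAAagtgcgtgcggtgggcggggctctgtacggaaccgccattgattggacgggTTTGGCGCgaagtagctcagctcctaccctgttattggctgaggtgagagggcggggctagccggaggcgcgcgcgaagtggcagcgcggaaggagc
Mcm5, chr8:75109259-75109558 (+ strand): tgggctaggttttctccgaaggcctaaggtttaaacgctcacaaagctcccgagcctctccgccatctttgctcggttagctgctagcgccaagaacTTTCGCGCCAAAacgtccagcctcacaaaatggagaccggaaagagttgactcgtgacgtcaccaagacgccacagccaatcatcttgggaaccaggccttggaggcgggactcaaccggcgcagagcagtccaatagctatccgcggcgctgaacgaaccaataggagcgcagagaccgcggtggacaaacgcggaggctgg

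Genes of mitosis moved less. Of 19 tested members, 2 were higher and 14 lower at 24 h, with a median log2 fold change of -0.37. The largest fall was that of the kinesin Kif20a at -0.73 (SE 0.08, adjusted p = 5.97e-05), and Ccnb2, a mitotic cyclin, and Bub1, a spindle checkpoint kinase, were the 2 that were higher, with log2 fold changes of 0.31 (SE 0.07, adjusted p = 0.00285) and 0.22 (SE 0.07, adjusted p = 0.0163). Bub1 lost the call without replicate 6 at 4 h or replicate 5 at 24 h (adjusted p = 0.0704 and 0.078). In DMSO neither was called higher: the list gave 0 higher and 16 lower of 19, median -0.49. The CCAAT box stood in 14 of the 15 mitosis genes with a window, against 37.9% of all windows, and TTTGAA, the core of the cell cycle homology region, in 11 of 15 against 18.1%, both strands counted.

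Genes tied to leaving the cell cycle went the other way. Of 19 tested members, 15 were higher and 1 lower at 24 h, with a median log2 fold change of 0.87. Ccng2, an atypical cyclin that FoxO factors raise in resting cells (ENSMUSG00000029385, chr5:93415116-93424090), read 297, 607 and 274 at 4 h and 2457, 3239.6 and 3386 at 24 h, a log2 change of 3.03 (SE 0.25, adjusted p = 1.31e-05). Its 4 h libraries were uneven, with replicate 5 the highest, and without that library the change was 3.39. Klf2, a quiescence factor, read 118, 227 and 166 at 4 h and 692, 748 and 839 at 24 h, a change of 2.2 (SE 0.20, adjusted p = 1.70e-05). The kinase inhibitors Cdkn2d (p19) and Cdkn1b (p27) rose by 1.62 and 1.55 (adjusted p = 6.31e-06 and 1.22e-05). Sesn1, a stress-inducible inhibitor of mTORC1, was the 1 member called lower, at -0.31 (SE 0.11, adjusted p = 0.0351), and lost that call when any library but replicate 5 at 4 h was left out (adjusted p up to 0.144) and with DESeq2. Of the p53 targets, in contrast, most calls were falls: 2 higher and 8 lower of 13 tested, median -0.46. Aen, an apoptosis nuclease, and Tigar, a fructose bisphosphatase, fell by 1.24 and 1.23, whereas Bbc3, the cell death protein PUMA, rose by 0.93 (adjusted p = 2.62e-05, 7.29e-06 and 2.28e-05). The other call upward was Mdm2, the ubiquitin ligase of p53, at 0.31 (SE 0.08, adjusted p = 0.00639).

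Ribosome biogenesis fell as evenly as DNA replication. Of 16 tested members, 0 were higher and 15 lower at 24 h, with a median log2 fold change of -0.82. Dkc1, the pseudouridine synthase of ribosomal RNA, read 4713, 4959.6 and 4936 at 4 h and 2723, 2203 and 1915 at 24 h, a log2 change of -1.11 (SE 0.11, adjusted p = 2.49e-05). Nop2, a ribosomal RNA methyltransferase, read 6040.2, 5741 and 6029 at 4 h and 3108, 2918 and 2464 at 24 h, a change of -1.07 (SE 0.08, adjusted p = 1.13e-05). The times did not overlap in these genes. The nucleolar proteins Ncl and Fbl fell by 0.64 and 0.55 (adjusted p = 1.10e-04 and 1.93e-04), while Npm1, a nucleolar chaperone with many processed copies in the genome, was at 0.04 (SE 0.06, adjusted p = 0.584) with counts of 26899, 27509 and 26614 at 4 h and 28287, 27504 and 27681 at 24 h. The list took 0.788 to 0.819% at 4 h and 0.491 to 0.589% at 24 h of the reads.

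**Figure D3:**
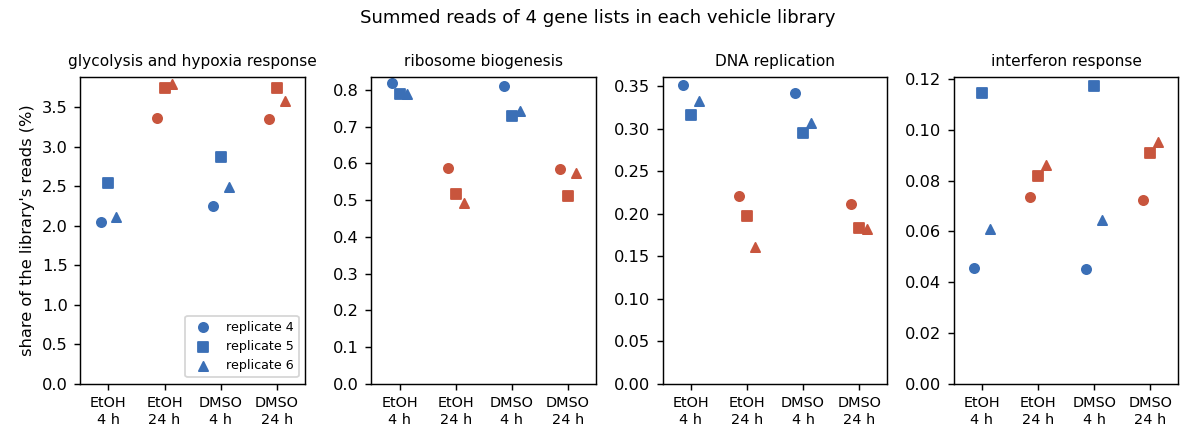
Share of each library's reads (percent, axes from 0) taken by 4 gene lists, in ethanol and DMSO libraries at 4 h (blue) and 24 h (red), with a marker shape for each replicate number. The glycolysis share at 24 h (3.37 to 3.79% in ethanol) lies above every 4 h library, ribosome biogenesis and DNA replication lie below, and replicate 5 at 4 h (squares) is the highest interferon library in both vehicles.

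Immediate early genes, which serum and stress switch on within minutes, were on balance higher at 24 h. Of 17 tested members, 11 were higher and 2 lower at 24 h, with a median log2 fold change of 0.79. Ier3 rose by 2.33, the zinc finger factor Egr3 by 2.18, the stress factor Atf3 by 2.11 and the phosphatase Dusp1 by 1.94 (adjusted p = 1.32e-05, 1.75e-04, 2.12e-06 and 4.62e-05). Dusp1 read 127, 259 and 149.6 at 4 h and 619, 703 and 646 at 24 h. Fos, a subunit of the factor AP-1, was lower, at -0.59 (SE 0.14, adjusted p = 0.00385). Of the circadian clock genes, 7 were higher and 2 lower of 15 tested. Bhlhe40, a clock repressor that hypoxia also raises, read 882, 1130.2 and 880.4 at 4 h and 3827, 4483 and 4942 at 24 h, a log2 change of 2.2 (SE 0.12, adjusted p = 2.65e-06). Bmal1, the partner of Clock, rose by 1.71 (SE 0.14, adjusted p = 1.31e-05) and Nfil3, a repressor of the D-box, by 1.51 (SE 0.18, adjusted p = 5.93e-05). The period gene Per3 rose by 1.39, and Nr1d2, a nuclear receptor that represses Bmal1, fell by 0.50 (adjusted p = 2.30e-05 and 0.00168). With 2 sampling times, no phase could be read. The E-box CACGTG was in 5 of 12 clock windows, in 7.24% of all windows and in 10.1% of those of tested genes.

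Targets of ATF4, the factor of the integrated stress response, gave 9 higher and 1 lower of 15, median 0.40. The share called was near the 58.6% of all tested genes, so the values are descriptions only. Without replicate 5 at 4 h the counts were 9 higher and 3 lower. Ddit3 (CHOP), a factor that promotes cell death, read 169, 222 and 265 at 4 h and 876, 973 and 1182 at 24 h, a log2 change of 2.22 (SE 0.16, adjusted p = 8.97e-06). Trib3, a pseudokinase, rose by 2.17 (SE 0.10, adjusted p = 2.12e-06) and Ddit4, an inhibitor of mTORC1 that hypoxia raises as well, by 2.14 (SE 0.21, adjusted p = 2.46e-05). The glutathione-degrading enzyme Chac1 rose by 1.64 (adjusted p = 7.29e-06) and was the 1 member of 14 with a window that held the ATF4 element TTGCATCA. That element was found in 0.929% of all windows and in 0.636% of those of tested genes. Atf4 itself was at 0.51 (SE 0.06, adjusted p = 9.82e-05). The biosynthetic targets did less: asparagine synthetase Asns was at 0.40 (SE 0.08, adjusted p = 0.00122), and Shmt2, the mitochondrial serine enzyme, fell by 0.47 (adjusted p = 0.00127).

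Protein folding genes in the endoplasmic reticulum gave 4 higher and 5 lower of 14, median 0.02, and 2 higher and 3 lower without replicate 4 or 6 at 4 h or replicate 5 or 6 at 24 h. Edem1, which draws misfolded glycoproteins to degradation, rose by 0.58, and the chaperone Calr fell by 0.90 (adjusted p = 1.04e-04 and 1.96e-05). Hspa5, the chaperone BiP, read 22345, 23051 and 24119 at 4 h and 27664, 25541 and 26114 at 24 h, a log2 change of 0.19 (SE 0.07, adjusted p = 0.0342). Herpud1, Sdf2l1 and Hspa5 were the other calls upward, and Dnajc3, Hyou1, Manf and Pdia6 the other calls downward, by no more than -0.33. The calls of Hspa5, Sdf2l1, Manf and Pdia6 were lost when single libraries were left out, with adjusted p up to 0.108, 0.177, 0.0832 and 0.124. Heat shock chaperones, which hold proteins folded in the cytosol and mitochondria, fell in 7 of 9 members, none rose, and the median was -0.49. The HSP110 chaperone Hsph1 fell by 1.02 (adjusted p = 1.99e-05), and Hspa8, the constitutive HSC70, was at -0.11 (SE 0.07, adjusted p = 0.212).

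Targets of Nrf2, the factor of the antioxidant response, include genes that the study itself named from LPS and drug comparisons of this series. Their count is therefore no independent evidence. They gave 3 higher and 6 lower of 13, median -0.29. Hmox1, haem oxygenase 1, read 2586, 3625 and 3052 at 4 h and 9993, 10411 and 11649 at 24 h, a log2 change of 1.80 (SE 0.11, adjusted p = 5.69e-06). Srxn1, which repairs peroxiredoxins, was at 0.16 (SE 0.09, adjusted p = 0.14), and Gclm, the modifier subunit of glutathione synthesis, at -0.30 (SE 0.07, adjusted p = 0.00462). Prdx1, a peroxiredoxin, fell by 0.52 (adjusted p = 3.95e-04). The other calls upward were the cystine importer Slc7a11 and Osgin1, at 0.38, a call lost without replicate 5 at 4 h or replicate 6 at 24 h (adjusted p = 0.0569 and 0.0509). Slc7a11 rose by 0.55 (adjusted p = 9.20e-04).

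Enzymes that can oxidise ethanol and its product acetaldehyde showed small differences. Of 9 tested members, 2 were higher and 2 lower at 24 h, with a median log2 fold change of 0.03. The hepatic alcohol dehydrogenase Adh1 had at most 1.4 normalized counts in any library, the stomach form Adh7 had 5.19 to 19.8, and the ethanol-inducible Cyp2e1 had no entry in the table. Cat, catalase, read 1952, 1610.3 and 1675 at 4 h and 2477, 2320.1 and 2895 at 24 h, a change of 0.55 (SE 0.10, adjusted p = 7.47e-04). Adh5, the widely expressed class III alcohol dehydrogenase, read 2224, 2056 and 2247 at 4 h and 1762, 1818 and 1860.1 at 24 h, a change of -0.26 (SE 0.06, adjusted p = 0.00536). Aldh9a1 and Akr1a1, an aldehyde dehydrogenase and an aldehyde reductase, were the other calls, at 0.26 and -0.19. That of Akr1a1 was lost without replicate 4 or 6 at 4 h or replicate 4 at 24 h (adjusted p up to 0.0882). Aldh2, the main acetaldehyde dehydrogenase of mitochondria, read 5399, 4448 and 4971 at 4 h and 4626, 4874 and 5637 at 24 h, with the times overlapping and a change of 0.03 (SE 0.09, adjusted p = 0.793). Acss2, which makes acetyl-CoA from acetate and stands in the fatty acid list, rose by 1.89 (SE 0.18, adjusted p = 1.96e-05). It read 165, 262 and 213 at 4 h and 628, 888 and 845 at 24 h. In DMSO its change was 1.49 (SE 0.23, adjusted p = 3.80e-04).

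Lipid genes moved in both directions. Sterol synthesis gave 7 higher and 1 lower of 18, median 0.23, with lanosterol synthase Lss at 0.84 (SE 0.10, adjusted p = 6.81e-05). The count rested on single libraries: it was 13 higher without replicate 5 at 4 h and 4 higher without replicate 4 or 6 at 4 h or replicate 5 at 24 h. Fatty acid synthesis gave 4 higher and 5 lower of 12, the elongase Elovl6 being at -0.58 (SE 0.10, adjusted p = 6.14e-04). The 5 became 2 without replicate 4 at 4 h or replicate 6 at 24 h, and 3 without replicate 6 at 4 h or replicate 4 or 5 at 24 h and with edgeR. Among targets of the sterol sensor LXR, the cholesterol exporter Abca1 rose by 0.56, and Nr1h3, which encodes LXR-alpha, read 149, 212 and 180.2 at 4 h and 81.0, 75.2 and 41.9 at 24 h, a change of -1.48 (SE 0.25, adjusted p = 5.36e-04). Lysosome and autophagy genes were more often higher: 11 higher and 3 lower of 18, median 0.41. Without replicate 5 at 4 h they were 11 higher and 6 lower, median 0.32. The autophagy receptor Sqstm1 rose by 1.21 (SE 0.10, adjusted p = 1.32e-05) and Wipi1, of the forming autophagosome, by 1.05 (SE 0.10, adjusted p = 2.25e-05), while the protease Ctsz fell by 0.55 (adjusted p = 1.02e-04). The lysosomal element GTCACGTG, which holds the E-box, was in 5 of 16 windows of this list. It was in 2.33% of all windows and in 4.34% of those of tested genes.

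In the interferon response single libraries set both the count and the direction. Of 16 tested members, 1 was higher and 0 lower at 24 h, with a median log2 fold change of 0.23. The 1 was Stat2, a transcription factor of interferon signalling, at 0.69 (SE 0.27, adjusted p = 0.0442), a call kept only without replicate 5 at 4 h among the 6 fits that left out a library (adjusted p up to 0.163 in the others) and lost with edgeR and DESeq2. Replicate 5 at 4 h was the highest 4 h library in 16 of 16 members and the highest of all 6 libraries in 15 of 16, and replicate 5 at 4 h in DMSO was the highest of its 3 in 16 of 16. Irf7, the factor that amplifies interferon transcription, read 539, 2911 and 985 at 4 h and 1939, 2135 and 2395 at 24 h, a log2 change of 0.89 (SE 0.45, adjusted p = 0.112). Without replicate 5 at 4 h the change of Irf7 was 1.56 (adjusted p = 3.67e-05) and 9 members were higher with a median of 0.61, whereas without replicate 4 at 4 h no member was higher, 3 were lower and the median was -0.22. Ifit1, an RNA-binding effector, read 282, 1054 and 528 at 4 h and 277, 344 and 402 at 24 h and Isg15, a ubiquitin-like modifier, read 76.2, 337 and 144 at 4 h and 134, 159.5 and 174 at 24 h. The list took 0.0458, 0.115 and 0.0610% of the reads at 4 h and 0.0734, 0.0820 and 0.0860% at 24 h, in the order of the replicate numbers. What set replicate 5 apart was not tested. The interferon element, GAAA repeated after 2 free bases on either strand, was in 9 of 13 interferon windows. It was in 3.49% of all windows and in 3.16% of those of tested genes.

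Chemokines went both ways. The list of cytokines and chemokines also holds genes the study named from LPS and drug comparisons of this series. It gave 6 higher and 2 lower of 14, median 0.37. Cxcl2, which draws neutrophils, read 122, 342 and 120.2 at 4 h and 1109, 881 and 983 at 24 h, a log2 change of 2.52 (SE 0.33, adjusted p = 1.10e-04). The chemokines Ccl4, Ccl5 and Ccl3, which draw T cells and macrophages, rose by 1.67, 1.24 and 1.20 (adjusted p = 2.34e-05, 0.0124 and 6.66e-06). Ccl5 read 71.6, 236 and 79.7 at 4 h and 247, 280.1 and 263 at 24 h, and its adjusted p was 0.0581 without replicate 6 at 4 h and 0.102 with DESeq2. The monocyte-attracting chemokines Ccl7 and Ccl2 fell: Ccl7 read 106, 115 and 147 at 4 h and 72.6, 13.0 and 51.0 at 24 h, a change of -1.70 (SE 0.49, adjusted p = 0.0122), and Ccl2 read 1079, 1084 and 1387 at 4 h and 1003, 658 and 696 at 24 h, a change of -0.61 (SE 0.15, adjusted p = 0.00647). Without replicate 6 at 4 h the adjusted p of Ccl7 was 0.0501. In DMSO the changes of Ccl7 and Ccl2 were -0.56 (SE 0.23, adjusted p = 0.0606) and 0.19 (SE 0.17, adjusted p = 0.379).

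Of the complement genes, the receptor of the C5a fragment, C5ar1, rose by 1.25 (SE 0.29, adjusted p = 0.00389) and C1qb, a chain of C1q, was at -1.10 (SE 0.37, adjusted p = 0.0265), with an adjusted p of 0.0735 without replicate 6 at 24 h and 0.0754 with DESeq2. It was below the filter on low values when a 4 h library was left out. The C3a receptor C3ar1, at 0.61, and properdin Cfp, at -0.39, were the other calls of 6 tested. Antigen presentation gave 1 higher and 2 lower of 11, its 1 rise being Nlrc5, the class I transactivator, at 0.53 (SE 0.07, adjusted p = 8.49e-05), and its falls the peptide-loading gene Tapbp and the immunoproteasome gene Psmb8. Without replicate 5 at 4 h that list gave 3 higher and 1 lower, and Tapbp lost its call there and without replicate 4 or 5 at 24 h (adjusted p up to 0.101). Activated phagocyte genes gave 2 and 2 of 12, median -0.10, with Cd9 and the galectin Lgals3 higher and the beta-glucan receptor Clec7a and the fatty acid carrier Fabp5 lower. Clec7a lost its call without replicate 5 or 6 at 4 h or replicate 4 or 6 at 24 h (adjusted p up to 0.109). Without replicate 5 at 4 h the phagocyte list gave 3 higher and 1 lower and the complement list 3 higher and 1 lower. Microglial markers gave 3 and 5 of 15, median -0.08. The macrophage receptor Adgre1 (F4/80) read 1459.8, 2139 and 1699.7 at 4 h and 779, 1266 and 1011 at 24 h, a change of -0.80 (SE 0.17, adjusted p = 0.00239). The fractalkine receptor Cx3cr1 fell by 0.79 and the lineage factor Spi1 (PU.1) by 0.67, while Aif1 (Iba1) and Runx1 rose by 0.68 and 0.62 (adjusted p = 0.00163, 2.04e-04, 0.0076 and 6.81e-05). Of the markers of other cell types, 4 were abundant enough to test, and 1 was called higher and 0 lower. That list gave 0 higher and 0 lower without replicate 4 or 5 at 4 h or replicate 5 or 6 at 24 h.

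Per kilobase of exon, the same 5 genes were the most abundant at both times: the mitochondrial genes mt-Co1, mt-Cytb and mt-Nd1, the ribosomal protein gene Rplp1 and the elongation factor gene Eef1a1. On that scale mt-Co1, a subunit of cytochrome c oxidase, had a mean level of 121456 normalized counts per kilobase at 4 h and 158745 at 24 h, and Rplp1 had 55740.3 and 59871. The mitochondrially encoded genes gave 1 higher and 6 lower of 11. The respiratory complex I subunit mt-Nd1 fell by 0.62 and mt-Co1 rose by 0.38 (adjusted p = 9.52e-04 and 0.01), so these transcripts did not move as one.

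The same comparison in DMSO asked how far the time difference depended on the vehicle. In DMSO 25.7% of the 11482 tested genes were higher and 25.8% lower (51.6% in all), and 5.32% and 0.862% were so beyond a log2 fold change of 1. Of 11446 genes tested in both, 5300 were called in both, which is 76.8% of the ethanol calls and 89.5% of the DMSO calls, and 5299 of them had the same direction. The log2 fold changes correlated across genes with a Pearson r of 0.908 and a Spearman rho of 0.907, and 89.3% had the same sign. These are descriptions, since genes are not independent replicates. The fold changes were larger in ethanol: the median of their absolute value was 0.361 against 0.300, and of the 1061 genes called beyond 1 in ethanol and tested in DMSO, 910 had the larger change in ethanol, though choosing genes by their ethanol change favours that result. The 12 largest rises were all called in DMSO, and of the 12 largest falls all but F12, coagulation factor XII, and Ccl7.

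**Figure D4:**
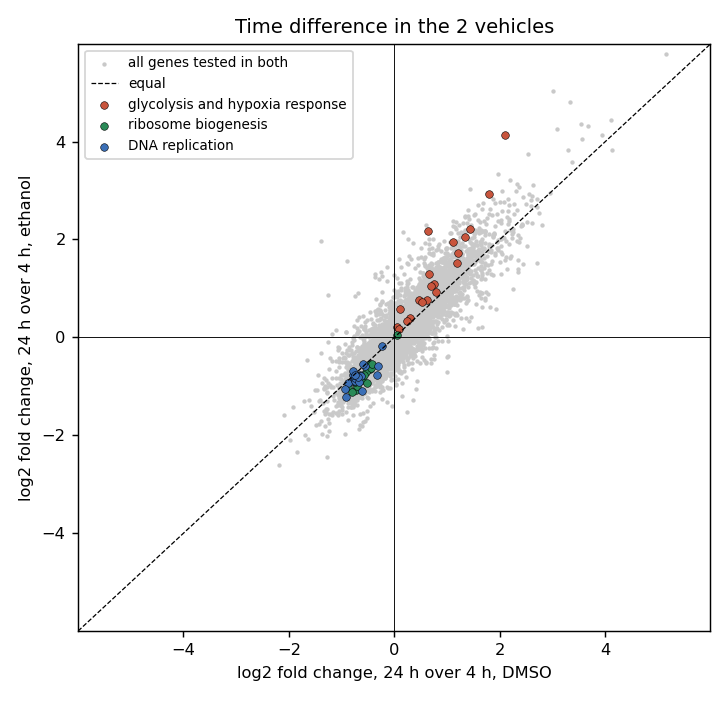
Log2 fold change of 24 h over 4 h in DMSO (horizontal) and in ethanol (vertical) for the 11446 genes tested in both, with 3 gene lists coloured and the dashed line marking equal change. Points lie along the line (Pearson r 0.908), and the 20 genes of the glycolysis and hypoxia list lie above it.

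The difference between the 2 time differences was tested directly, in a limma model over the 12 vehicle libraries. In this model, which held no term for the replicate number, none of 11931 genes passed, and the smallest adjusted p was 0.51. At an unadjusted p below 0.05 there were 877 genes (7.35%), 492 with a more positive time difference in ethanol (4.12%) and 385 with a more negative one (3.23%). DESeq2 called 8 genes and edgeR 0. Without replicate 4 of DMSO at 4 h limma called 6, and without any other library 0. With a term for the replicate number limma called 21, of which 18 were more positive in ethanol and 3 more negative. The 8 called by DESeq2 were Vps39, Fzd7, Parp16, Snupn, Ppp1r13l, Clcn3 and Zfp292, more positive in ethanol, and Serpinb8, more negative. Fzd7, a Wnt receptor, had the smallest unadjusted p of these in limma, with a difference of 0.80 (SE 0.15, unadjusted p = 9.92e-05, adjusted p = 0.51).

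Within the lists, the glycolysis and hypoxia genes had one-sided differences. All 20 members had the more positive time difference in ethanol, against 47.8% of all genes, the median difference was 0.34, and 10 had an unadjusted p below 0.05. Ndrg1 differed by 1.13 (SE 0.41, unadjusted p = 0.0156, adjusted p = 0.607). Ribosome biogenesis went the other way in 15 of 16 members, with a median of -0.18 and 2 members at an unadjusted p below 0.05. So did the heat shock list, in 9 of 9 members with a median of -0.21 and 5 at an unadjusted p below 0.05, and the unfolded protein response had a median of -0.24 with 5 of 14 lower at that threshold. The levels behind this were read on counts scaled together over the 12 libraries, without a test of 1 vehicle against the other. At 4 h Adm read 55.5, 189 and 36.0 in ethanol and 132, 468 and 255 in DMSO, and at 24 h it read 1052, 1243 and 1652 in ethanol and 1069.5, 1115 and 1065 in DMSO. Ndrg1 spanned 4801 to 10779 against 8315 to 18956 at 4 h and 40949 to 54244 against 39448 to 50826 at 24 h. Ccng2 spanned 244 to 541 against 558 to 1438 and then 2203 to 3021 against 2319 to 2904. In Adm, Ndrg1 and Ccng2 the 2 vehicles overlapped at 24 h. At 4 h the ethanol means of the 3 genes were below the DMSO means. The 4 h libraries of the 2 vehicles overlapped in Adm and Ndrg1 but not in Ccng2. Replicate 5 was the highest 4 h library in each vehicle for these genes, and no individual gene of the list passed the adjusted threshold for the difference in this model. In limma with a term for the replicate number, Pfkp of the glycolysis list passed (adjusted p = 0.049).

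**Figure D5:**
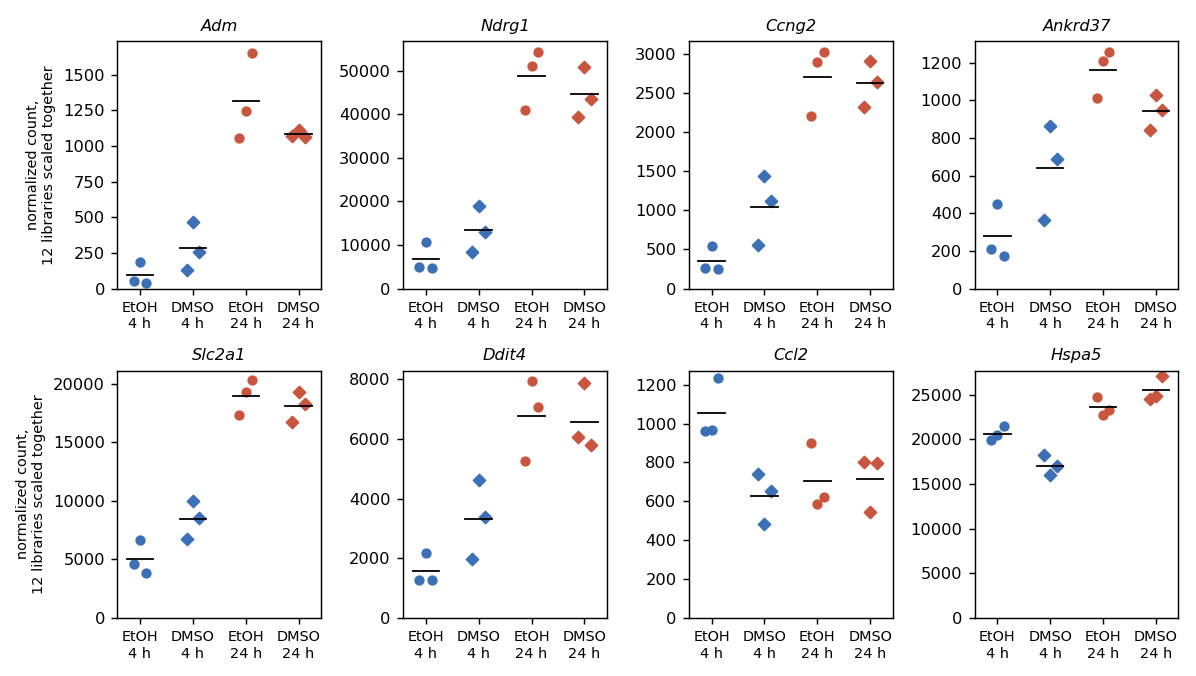
Normalized counts of 8 genes in ethanol (circles) and DMSO (diamonds) libraries at 4 h (blue) and 24 h (red), scaled together over 12 libraries, with bars at the means of 3 and axes from 0. For Adm, Ndrg1 and Ccng2 the ethanol and DMSO points overlap at 24 h, while the ethanol means are the lower at 4 h. The 4 h points of the vehicles overlap for Adm and Ndrg1 but not for Ccng2.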

How the data were processed

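Poly(A)+ RNA of BV-2 cells was sequenced in 12 vehicle libraries without LPS, 6 of them in ethanol. The submitters' processing notes name FastQC 0.12.1, cutadapt 4.4, Trimmomatic 0.39, HISAT2 2.2.1, HTSeq 2.0.3, R 4.3.1, DESeq2 1.40.2 and GRCm39; the strand setting is not given in the sources used here. The deposited values are a signal, read counts that the authors divided by DESeq2 size factors. Whole reads were recovered within 0.01 read for 100% of values, which gave the depths. The authors' own fold changes and p-values stand in the same files and were not used.

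Genes with a normalized count of at least 10 in at least 3 libraries were tested with limma 3.58.1 (R 4.3.3) on log2(normalized count + 1), a scale that understates the change of low genes, between the 2 times within each vehicle, with Benjamini-Hochberg adjustment over all tested genes and a threshold of 0.05. The difference between vehicles was an interaction term over the 12 libraries, scaled together. Alternatives were edgeR 4.0.16 and DESeq2 1.42.0 on the recovered reads, a pseudocount of 5, no filter, a replicate block, leaving out each library, a fold limit and reads thinned to the smallest library. The tests were checked on simulated counts. The genes named were the 12 largest rises and falls among called protein coding genes whose mean reached 100 at the higher time, without overlap of the times, the called list members with the largest rise and fall, further members whose role is described (some members are not reported here by name), the 8 genes that DESeq2 called in the vehicle interaction and the 5 most abundant genes. The comparison, gene lists and rules were chosen with earlier results of these data known. Positions are from GENCODE on GRCm39, which held 17512 of the 17532 genes. Depth limits precision through counting error, and no replicate was removed.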

Additional observations from a re-analysis of the deposited data

How the results depend on the processing

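Counts of called genes stayed within 1.5 times of the reported ones in both vehicles under edgeR, DESeq2, the other pseudocount, no filter and thinning. In ethanol 6901 genes passed with limma, and 5857 to 6841 did when 1 library was left out; in DMSO 5922 passed, and 4703 to 6077 did. With a log2 fold change beyond 1 required, 1136 genes remained in ethanol (871 higher, 265 lower) and 710 in DMSO (611 and 99). With reads thinned to the smallest library, a setting chosen after the data were seen, and the same limit, the counts were 1077 (824 and 253) and 699 (608 and 91). For the difference between vehicles, limma called 0 genes, DESeq2 8 (7 more positive in ethanol, 1 more negative) and leaving out 1 library 0 to 6, the 6 without replicate 4 of DMSO at 4 h. The replicate numbers could not be shown to pair the 4 h and 24 h libraries within a vehicle. Deviations of same-numbered libraries correlated at 0.314, 0.217 and 0.037 for numbers 4, 5 and 6 in ethanol. In DMSO they correlated at 0.362, 0.376 and 0.008, and numbers 4 and 5 but not 6 correlated best with their own number. Pairing between the 2 vehicles at the same time was not checked in this way. At 4 h, numbers 4, 5 and 6 lay at 9.88, -12.4 and 3.49 on the second principal component in ethanol. They lay at 8.04, -15.7 and -0.978 in DMSO. With the replicate block, 7173 genes were called in ethanol, 6483 in DMSO and 21 (18 and 3) in the difference between vehicles, among them Fzd7 (adjusted p = 0.00593), Ccng2 (0.0458) and the glycolysis member Pfkp (0.049). The cause of these shifts was not tested.

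Of 174 genes, those named and further list members, refitted under every setting, 19 of 151 called genes lost the call under at least 1 (among them Akr1a1, Bub1, C1qb, Ccl5, Ccl7, Clec7a, Eef1a1, Hspa5, Lamp1, Manf, Osgin1, Pdia6, Pgam1, Pkm, Sdf2l1, Sesn1, Stat2 and Tapbp), 9 of 23 uncalled genes gained it (among them Cdt1, Csf1r, Ctsb, Ifit1, Irf7, Ldha and Srxn1), and none changed sign while called. Of 350 counts of list members, 54 moved by over 1.5 times. With 3 libraries a group, low genes limit what could be called.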

Other observations

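Genes of small RNAs, read in these poly(A)+ libraries as fragments over their annotated loci and not as mature molecules, had calls in 1 direction within each class. Of 18 tested miRNA genes, 8 were higher at 24 h and 0 lower, with a median log2 fold change of 0.69. Low genes could pass the filter of 10 in 3 libraries through 1 time alone, which favours calls toward that time. Among the 8, the 4 h means of Mir221, Mir8116, Gm55094 and Mir1957a were below 10. The 24 h mean of Gm24727, a snoRNA called lower, was below 10. Of 38 tested snoRNA genes, 0 were higher and 7 lower, with a median of -0.46. Of the 7, Snora57 and Gm25777 were called lower in DMSO too, and Snora2b, Gm24727, Gm54825, Gm23301 and Gm22571 were not called there. By limma, 29.1% of all tested genes were higher and 29.5% lower, so the share of snoRNA genes called lower was below that of all genes. Mir5125 went from a mean normalized count of 137 to 339.8, a log2 change of 1.32 (adjusted p = 6.20e-05). Snora57, a guide of ribosomal RNA modification, went from 60.6 to 20.4, a change of -1.55 (adjusted p = 0.00238). Where such a locus lies within another gene, reads of the host cannot be told apart from reads of the locus.

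Lars2, the mitochondrial leucyl-tRNA synthetase, was singled out after its values were seen. It read 2716, 5373 and 5059.7 at 4 h and 10219.6, 8501 and 10583 at 24 h in ethanol, a log2 change of 1.21 (SE 0.21, adjusted p = 7.09e-04), and 2234, 3154 and 5065 at 4 h and 2932, 3830.3 and 3583 at 24 h in DMSO, a change of 0.06 (SE 0.23, adjusted p = 0.846). The difference between vehicles was 1.16 (SE 0.37, unadjusted p = 0.00774, adjusted p = 0.558) and did not pass the adjusted threshold.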
